A study of Mus musculus with 4 samples.

Results

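Natural killer (NK) cells were followed in 4 single-cell RNA libraries of MC38 tumors, and were chosen by their own RNA. A barcode was counted as an NK cell when it had more than 500 detected genes, at least 2 unique molecular identifiers (UMIs, counted RNA molecules) summed over Ncr1, Klrb1c and Klra8, and 0 UMIs of the T cell genes Cd3d, Cd3e, Cd3g, Cd8b1 and Foxp3, the macrophage gene C1qa and the MC38 gene Hmga2. This rule selected 1057 of 31143 barcodes over the gene minimum, of which 348 came from WT anti-PD1, 300 from A159V IgG, 250 from A159V anti-PD1 and the smallest number, the rest, from WT IgG. MC38 is a mouse colon adenocarcinoma line. It was grown under the skin of C57BL/6 mice either with wild-type Rac1 (WT) or with the A159V change knocked in by CRISPR-Cas9 at both copies of the endogenous gene (A159V), and the mice received an anti-PD1 antibody (clone RMP1-14) or an isotype control IgG. CD45+ and CD45- cells of each tumor preparation were separated on beads and mixed again at a set ratio, so the share of NK cells among all barcodes also describes that mixing. The NK cells are host cells that do not carry the edit, the edit lies in the coding sequence and cannot be read from gene counts, and the mutant line of the study is 1 clone unless stated otherwise. There was 1 library for each group and the number of mice behind each is not given in the sources used here, so no difference below has a replicate check and no test was made. Intervals are 95% intervals that cover counting error only.

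NK cells are lymphocytes of the innate immune system that kill stressed, infected or transformed cells without a rearranged antigen receptor. They weigh signals from activating receptors (NKp46, encoded by Ncr1, NKG2D, encoded by Klrk1) against those from inhibitory Ly49 and CD94/NKG2 receptors that read MHC class I, and they kill by releasing granules that hold perforin and granzymes. They also secrete interferon gamma and the chemokines XCL1 and CCL5, which draw cross-presenting dendritic cells into tumors. A related lineage, the type 1 innate lymphoid cell (ILC1), shares Ncr1 and Klrb1c with conventional NK cells but lacks EOMES and integrin alpha 2 (CD49b, encoded by Itga2).

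Several of the genes named below for the size of their ratio came from 1 gene cluster, though none did between the A159V libraries. Granzymes b, c, d, e, f, g and n are encoded side by side on the minus strand of mouse chromosome 14, in 144.6 kb between positions 56117626 and 56262260 (GRCm38, GENCODE M21), with Gzme at 1 end and Gzmb at the other. The 250 bases before the RefSeq start sites of 3 of them are shown because Gzmb and Gzmc were lower in WT anti-PD1 and Gzmg was higher in A159V than WT tumors given IgG. They are read from the minus strand of GRCm38.p6, 5′ to 3′, with matches to the RUNX motif TGTGGT on either strand and to the AP-1 motif TGANTCA in capitals.

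Gzmb, chr14:56262335-56262584: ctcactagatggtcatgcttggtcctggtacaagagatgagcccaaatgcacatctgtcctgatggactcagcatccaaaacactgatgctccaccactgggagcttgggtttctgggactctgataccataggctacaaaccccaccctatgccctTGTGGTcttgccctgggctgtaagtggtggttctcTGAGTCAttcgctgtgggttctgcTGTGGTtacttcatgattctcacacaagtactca
Gzmc, chr14:56234658-56234907: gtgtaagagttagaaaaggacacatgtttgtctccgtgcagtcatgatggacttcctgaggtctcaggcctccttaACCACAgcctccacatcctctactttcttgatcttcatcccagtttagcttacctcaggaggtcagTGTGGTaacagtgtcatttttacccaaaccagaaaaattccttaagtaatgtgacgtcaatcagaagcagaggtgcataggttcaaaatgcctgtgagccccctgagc
Gzmg, chr14:56159580-56159829: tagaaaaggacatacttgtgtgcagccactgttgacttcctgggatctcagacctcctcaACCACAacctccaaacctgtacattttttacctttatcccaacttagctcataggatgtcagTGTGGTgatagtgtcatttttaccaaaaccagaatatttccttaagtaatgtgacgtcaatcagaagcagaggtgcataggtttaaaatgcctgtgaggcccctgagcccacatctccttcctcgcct

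Each of the 3 windows held 2 RUNX matches, and that of Gzmb also held 1 AP-1 match, 58 bases before the start site. The T-box motif TCACACC, searched on both strands because EOMES and T-bet bind it, was in none of the 3. Over the 32851 mouse promoters of 300 bases in the RefSeq table, 16.8% held the RUNX motif, 7.81% the AP-1 motif and 3.98% the T-box motif, so a match here is a description of the letters and not a site. The promoters of Gzmc, Gzmd, Gzme, Gzmf and Gzmg were alike, with 86.1% (Gzmc and Gzmd) to 94.0% (Gzmd and Gzme) identical bases among the 275 to 299 that aligned, whereas each shared 54.2% to 63.2% of 250 to 276 aligned bases with that of Gzmb. The transcripts of Gzmc to Gzmg are also close copies, so reads may have been divided among them and their separate levels are uncertain.

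The libraries held 54402632 to 125227747 UMIs, and the summed NK counts were 914867 UMIs for WT IgG, 1809587 for WT anti-PD1, 1760497 for A159V IgG and 1363153 for A159V anti-PD1. Scaled to CPM, the counts of a gene for each 1000000 UMIs of the sum, 1 UMI was worth 0.5526 to 1.093 CPM. Where 4 values are given without names below, they keep that order. The median NK cell had 3631.5 to 5170 UMIs and 1.74% to 2.01% mitochondrial UMIs. Library pairs had 13 to 22 barcodes in common, none of which was an NK cell in both. WT anti-PD1 stood apart in 3 ways that touch the results below: it held 4 gated tumor cells against 636 to 1488 in the other libraries and 1568 gated stromal cells against 223 to 443, and 12.3% of the UMIs in its NK cells were of ribosomal protein genes against 17.6% to 20.7%. Its NK sum also contained RNA of stromal cells. The 14 stromal and endothelial genes of the marker list summed to 12649 CPM there, against 237 (WT IgG), 948 (A159V IgG) and 2741 CPM (A159V anti-PD1). In WT anti-PD1, 31 of the 348 cells carried at least 10 UMIs of these genes and held 95.5% of them. Cells with at least 10 UMIs of those 14 genes or of 7 macrophage genes are called mixed cells below; they numbered 3, 33, 8 and 8 in the 4 libraries, and without them the stromal sum was 231, 769, 256 and 234 CPM. A doublet score marked 5, 24, 19 and 20 NK cells. Values without mixed cells are given beside the lists and genes they touch most.

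The label NK was checked against genes that the rule did not use. Klre1, an NK receptor subunit, was at 478, 560.3, 518 and 474 CPM, and Tbx21, the T-bet transcription factor, was at 200, 303, 130.1 and 166 CPM. Gzma was at 2213 CPM or more in every library and Prf1, which encodes perforin, at 429 CPM or more. Thus the marker genes outside the rule were present in every library. Leaving out the rule's own genes, those that stood highest in NK cells over the highest other gated class were Car2, a carbonic anhydrase (55.5 times), Gzmc (44.9 times), Gzmg (32.2 times) and the receptor gene Klrb1f (28.2 times), with Gzma at 20.3 times and the Ly49 receptor gene Klra7 at 8.07 times. Being genes of the cells that were selected, these describe the selection and are not a test of it.

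RNA of several genes of other lymphoid cells was scarce. For T cell genes this follows in part from the rule, which required 0 UMIs of Cd3d, Cd3e, Cd3g, Cd8b1 and Foxp3. Cd8a was at 0 UMIs in the NK cells of all 4 libraries, a count that allows up to 3 UMIs in each sum. Trac, the T cell receptor alpha constant gene, stood at 15.3, 7.74, 6.82 and 8.07 CPM, and Trdc at 53.6, 61.3, 25.6 and 34.5 CPM. The 16 T cell markers together summed to 742.2, 861, 585.6 and 682.2 CPM, against 3290 CPM in gated T cells over the 4 libraries. They were led by Trbc1 (292, 264, 228 and 293 CPM), whose unrearranged transcripts NK cells are known to make. The cytokine genes Il22, Il17a and Il13 of other innate lymphoid cells were at 0 in every library. The list of macrophage markers summed to 3638, 1221, 4486 and 2491 CPM and was led by Spp1, described below.

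At the edge of the rule, cells with exactly 2 UMIs of the 3 selecting genes numbered 34, 48, 50 and 58, and those just outside, with 1 UMI, numbered 36, 69, 98 and 72. Gzma was at 3787, 3314, 974 and 1292 CPM just inside and at 1965, 1345, 595.6 and 1011 CPM just outside, while barcodes with 0 UMIs of the selecting genes had 7.60 to 12.3 CPM. The barcodes just outside the rule therefore also carried Gzma well above the rest of their library.

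The NK share was smallest in WT IgG by each of 3 denominators. Of all barcodes they made up 2.18% (1.86 to 2.54) with WT IgG and 5.09% (4.58 to 5.64) with WT anti-PD1. The corresponding A159V values were 3.69% (3.29 to 4.12) for IgG and 2.82% (2.48 to 3.18) for anti-PD1. The share in A159V IgG was thus 1.69 times (1.40 to 2.05) that in WT IgG. With anti-PD1 the share was 2.33 times (1.94 to 2.81) that of IgG in WT tumors and 0.763 times (0.647 to 0.900) that of IgG in A159V tumors. Among barcodes with a UMI of Ptprc, which encodes the leukocyte antigen CD45, NK cells were 3.27%, 8.03%, 6.77% and 4.08%, and among gated NK and T cells together they were 16.3%, 26.8%, 35.4% and 22.7%. A159V IgG had the highest share on the last of these scales, with 300 NK and 548 gated T cells, while WT IgG had 815 gated T cells and the fewest NK cells. With every barcode thinned to 1500 UMIs, so that depth could not decide who met the rule, the shares were 1.39%, 3.94%, 1.86% and 1.65%. The plot of NK shares shows the same order of WT IgG below WT anti-PD1, and of A159V IgG above A159V anti-PD1, on each denominator.

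**Figure D1:**
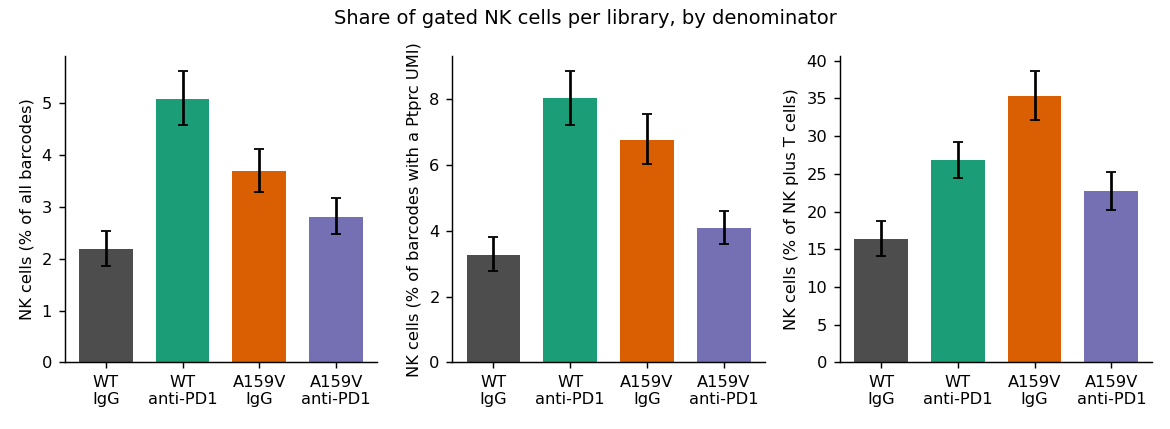
NK cells as a percent of all barcodes over the gene minimum, of barcodes with a Ptprc UMI, and of gated NK plus T cells (y axes) in the 4 libraries; bars start at 0 and error lines are exact binomial 95% intervals of 1 library each. WT IgG is the lowest in all 3 panels, WT anti-PD1 is the highest in the first 2 (5.09% and 8.03%), and A159V IgG is the highest among NK plus T cells (35.4%).

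Gene levels were compared by summing the UMIs of the NK cells of a library, scaling to CPM and taking log2 ratios with 1 CPM added to each side, which understates ratios of low genes. A gene was counted as past 2-fold when its log2 ratio was at least 1 or at most -1 and it had at least 50 CPM in 1 of the libraries compared. The comparisons share libraries (WT IgG and A159V IgG each enter 2 of the first 3), so they are not independent of each other.

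The first comparison, A159V IgG over WT IgG, asks how NK cells differed between IgG-treated tumors of the 2 genotypes. Of 3677 genes at the minimum, 40 (1.09%) were at least 2-fold higher in A159V IgG and 55 (1.5%) at least 2-fold lower, with a median of -0.07 over all genes. Among the higher genes that were not over 5 times higher in another gated class, Gzmg had the highest ratio and 3 other granzymes were in the first 12, and 6 chemokine and cytokine genes were among the lower. Without mixed cells the counts were 47 and 50.

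Of 20 measured members of the list of cytotoxic granule and death ligand genes, 4 were past 2-fold higher, namely Gzmd, Gzme, Gzmf and Gzmg, and none was past 2-fold lower (list median 0.06). Gzmg was at 242 CPM in WT IgG and 1610 in A159V IgG, a log2 ratio of 2.73 (2.54 to 2.93). Gzmf was at 1346 and 4647 CPM (1.79), Gzmd at 1117 and 3307 CPM (1.56) and Gzme at 658 and 1823 CPM (1.47). These counts were spread over more cells in A159V IgG. Gzmg had UMIs in 12 cells (7.55%) of WT IgG and in 80 (26.7%) of A159V IgG, although the top 5% of cells held 97.3% and 71.4% of its UMIs. Gzmc, which had UMIs in 101 and 247 cells, was at 8332 and 13954 CPM, a log2 ratio of 0.74 (0.71 to 0.78) that did not reach 2-fold. The genes for the granule proteins outside this sub-cluster moved less or the other way: Gzmb, the main caspase-activating granzyme, was at 3309 and 3738 CPM (0.18), Prf1 at 821 and 866 CPM (0.08), and Gzma, encoded on chromosome 13 at 113093825 to 113100981, at 3594 and 2213 CPM (-0.70). In gated T cells the same contrast gave 3.23 for Gzmg, 0.25 for Gzmc and -2.00 for Gzma.

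**Figure D2:**
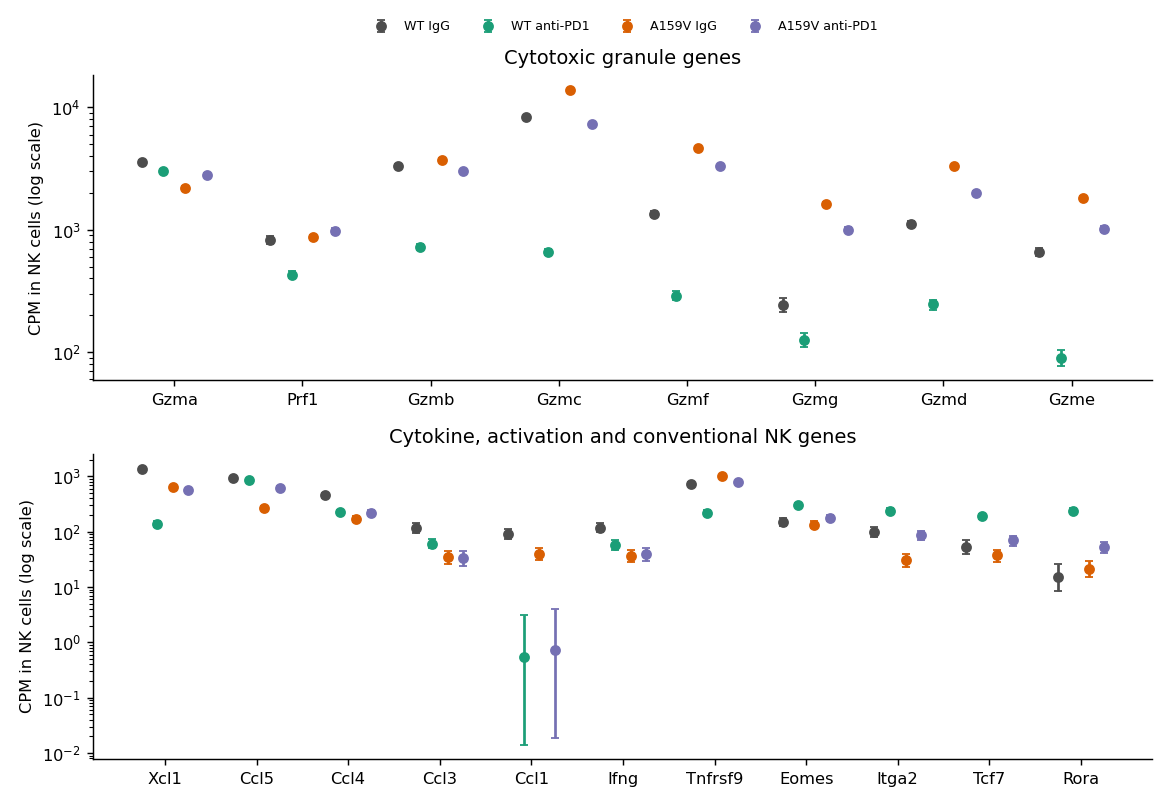
Summed NK counts in CPM (y axes, log scale) in the 4 libraries for granule genes (top) and for chemokine, cytokine, receptor and transcription factor genes (bottom), with exact Poisson 95% intervals. Gzmg and Gzmf are highest in A159V IgG, every plotted granule gene but Gzma is lowest in WT anti-PD1 (Gzmc at 653 CPM), and Rora and Tcf7 are highest in WT anti-PD1.

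Chemokine and cytokine genes were lower in the NK cells of A159V IgG. Of 9 measured members of the list, 6 were past 2-fold lower (Ifng, Ccl1, Ccl3, Ccl4, Ccl5 and Xcl1) and none was past 2-fold higher, with a list median of -1.19; the same list in T cells had 2 of 11 lower and 1 higher, with a median of -0.30. Xcl1, encoding the ligand of XCR1 on cross-presenting dendritic cells (chromosome 1, 164931644 to 164935527), was at 1362 CPM in WT IgG and 633 in A159V IgG (-1.10). Ccl5, encoding an inflammatory chemokine (chromosome 11, 83525778 to 83530518), was at 919 and 266 CPM (-1.78), and Ifng, encoding interferon gamma (chromosome 10, 118441046 to 118445892), at 119 and 36.9 CPM (-1.66, interval -2.10 to -1.23). All of these exceed the counting error of their libraries. Some rest on few cells: 1 cell held 273 of the 1246 Xcl1 UMIs of WT IgG, Ccl1 had 84 UMIs in 5 cells of WT IgG and 70 in 12 of A159V IgG, and 1 cell held 131 of the 298 Ccl4 UMIs of A159V IgG. In T cells, Ifng (-1.52) and Ccl3 (-1.44) were also lower in A159V IgG, whereas Ccl5 (-0.19) and Xcl1 (-0.26) were within 2-fold.

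Among receptor genes, 3 of 20 measured activating receptor and adaptor genes were past 2-fold lower, namely Crtam (57.9 and 15.9 CPM, -1.80), the adhesion gene Cd2 (87.4 and 34.1 CPM, -1.33) and Cd226, which encodes the DNAM-1 receptor for poliovirus receptor family ligands (60.1 and 23.3 CPM, -1.33). Il12rb2, a chain of the interleukin 12 receptor, was at 172 and 81.2 CPM (-1.07). On the higher side stood Klra5 (18.6 and 59.6 CPM, 1.63), of the Ly49 family whose close copies may divide reads, and Tnfsf4, encoding OX40 ligand (30.6 and 88.0 CPM, 1.49), whose UMIs were in 17 and 67 cells. Il1rl1, the interleukin 33 receptor gene, was at 6.56 and 57.9 CPM (2.96), but at 519 CPM in tumor cells and 227 in stromal cells over the 4 libraries, and gated tumor cells numbered 636 in WT IgG and 1488 in A159V IgG. How much of its NK value is RNA of those cells was not tested. Of 7 measured inhibitory receptor genes none passed 2-fold, and Pdcd1, the gene for PD-1 itself, was at 3.28 CPM in WT IgG and 13.1 in A159V IgG.

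Among genes of conventional, circulating NK cells, 2 were past 2-fold lower, beside 1.5% of all genes. Of 10 measured members, Itga2 (98.4 and 30.7 CPM, -1.65) and Klf2, a transcription factor gene of lymphocyte recirculation (54.6 and 23.3 CPM, -1.20), were past 2-fold lower and the list median was -0.47; without mixed cells Klf2 was at -0.57 and only Itga2 passed, of 9. The median of the list in this contrast was -0.34 in T cells and -0.22 in macrophages. Eomes was at 151 and 135 CPM (-0.16) and Tbx21 at 200 and 130.1 CPM in NK cells, both within 2-fold. Tox, encoding a transcription factor needed for NK development, was at 152 and 62.5 CPM (-1.27).

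Of 23 measured cell cycle genes 20 had a ratio above 0 and 2 were past 2-fold, Ube2c (36.1 and 149 CPM, 2.02) and Cenpf (20.8 and 54.0 CPM, 1.34), with a list median of 0.40; in T cells 0 of 23 passed and the median was 0.34. After thinning each cell to 1000 UMIs, 5.06% (2.21 to 9.73) of NK cells in WT IgG and 10.5% (7.28 to 14.6) in A159V IgG had at least 2 UMIs of 7 cycling genes; the unthinned shares were 15.1% and 24.7%. The thinned share was 2.55% and 1.54% in macrophages and 13.1% and 17.6% in CD8 T cells. The 2 NK intervals overlap. Ifitm1, an interferon-inducible membrane protein gene, was at 87.4 and 424 CPM (2.26), while its ratio in T cells was -0.92. Of 22 measured type I interferon-stimulated genes 0 passed 2-fold, and without mixed cells 1 of 19 did, Rsad2, at 41.6 and 96.6 CPM (1.20).

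The next comparison, WT anti-PD1 over WT IgG, asks what differed with PD-1 blockade in tumors with wild-type Rac1. Of 4377 genes at the minimum, 659 (15.1%) were at least 2-fold higher and 335 (7.65%) at least 2-fold lower, with a median of 0.35, and without mixed cells 694 and 345. Of the 659 higher genes, 184 were over 5 times higher in another gated class, so they may be RNA of other cells. With median-of-ratios size factors in place of the NK totals, 392 genes were higher. Members of the granule, cytokine and interferon-stimulated lists were among the lower genes, and some conventional NK genes among the higher.

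The granzyme cluster was low in WT anti-PD1. Gzmc was at 8332 CPM in WT IgG and 653 in WT anti-PD1, a log2 ratio of -3.67 (-3.76 to -3.58), and -3.86 without mixed cells. Gzmb was at 3309 and 719.5 CPM (-2.20, and -1.94 without mixed cells), Gzme at 658 and 89.5 CPM (-2.86), Gzmf at 1346 and 289.6 CPM (-2.21) and Gzmd at 1117 and 245 CPM (-2.19). In all, 6 of 20 measured granule genes were past 2-fold lower and none higher (median -0.72). Beside this, 7.65% of all genes and 24% of those spanning under 10 kb of the genome were past 2-fold lower. The sixth granule gene was Srgn, which encodes the granule proteoglycan serglycin (1177 and 462 CPM, -1.35). Gzma, at 3594 and 3049 CPM (-0.24), was not among them, and Prf1, at 821 and 429 CPM (-0.93), was just within 2-fold. In T cells the contrast was -4.36 for Gzmc and -2.08 for Gzmd, but -0.32 for Gzmb and 1.23 for Gzma.

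Counted per cell at equal depth, Gzmc was also found in fewer cells of WT anti-PD1. Thinning to 1000 UMIs left out 1, 7, 6 and 2 shallower NK cells. At that depth 58.2% of the WT IgG and 10.9% of the WT anti-PD1 NK cells had a Gzmc UMI, as did 74.8% of those in A159V IgG and 56.5% of those in A159V anti-PD1. The macrophages of the same libraries, which should lack the gene, had it in 0.444%, 0% (0 of 1026 cells, which allows up to 0.292%), 1.41% and 0.704%, and CD8 T cells in 4.86%, 0.222%, 8.56% and 6.67%. The NK share in WT anti-PD1 was 0.186 times (0.134 to 0.260) that in WT IgG, and in A159V IgG it was 1.29 times (1.11 to 1.49) that in WT IgG. Median depths before thinning were 4541, 3631.5, 5170 and 4106.5 UMIs in NK cells and 4011.5, 5305, 2605 and 3812 in macrophages. The unthinned count of cells with a Gzmc UMI was 101, 51, 247 and 164. In WT anti-PD1 84.8% of the Gzmc UMIs lay in the top 5% of cells, against 24.5% to 35.9% in the other libraries.

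**Figure D3:**
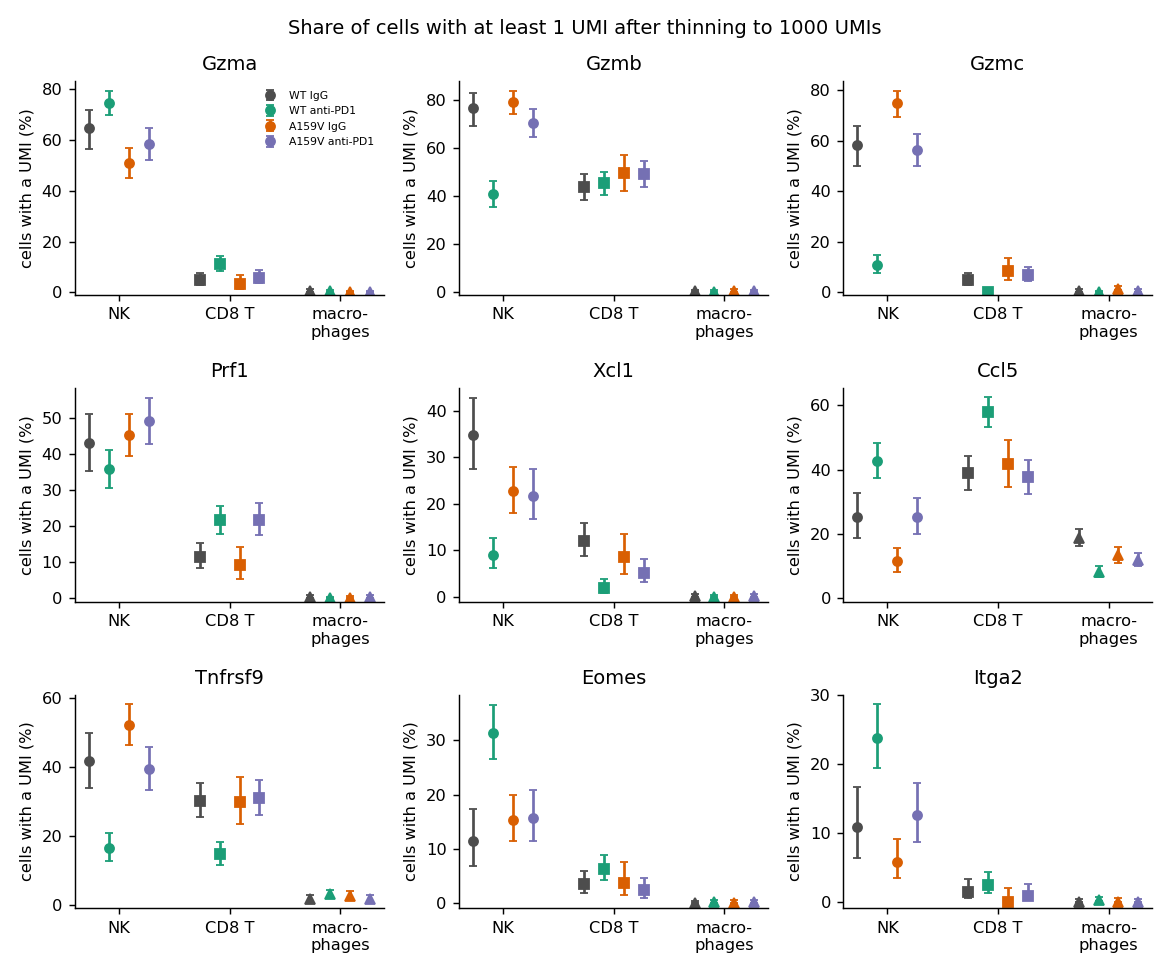
Percent of cells with at least 1 UMI of 9 genes after each cell was thinned to 1000 UMIs (y axis) in NK cells, CD8 T cells and macrophages of the 4 libraries, with exact binomial 95% intervals. For Gzmc the NK cells of WT anti-PD1 stand at 10.9% against 56.5% to 74.8% in the other libraries, and macrophages, shown as background, at 1.41% or less.

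Granzyme C went with other genes in the same cells. At 1000 UMIs, 34.8% of the WT IgG cells with a Gzmc UMI also had 1 of Gzmd, against 1 of 66 cells without Gzmc, and in A159V IgG the values were 59.1% and 5 of 74. Ccl5 had the opposite pattern: it was found in 9.78% of cells with Gzmc and 47.0% of cells without for WT IgG, 8.11% and 47.0% for WT anti-PD1, 3.18% and 36.5% for A159V IgG, and 5.0% and 51.9% for A159V anti-PD1. Gzma was likewise less frequent in cells with Gzmc in every library (55.4% and 77.3% in WT IgG, 47.3% and 62.2% in A159V IgG), and Spp1 more frequent (58.7% and 16.7% in WT IgG, 66.4% and 27.0% in A159V IgG). Macrophages, which carry Ccl5 themselves (307 CPM over the 4 libraries), had a Ccl5 UMI in 18.9%, 8.29%, 13.4% and 12% of cells. Thus in each of the 4 libraries the cells with Gzmc and the cells with Ccl5 overlapped little. These are shares over cells of 1 library each, the cells were not split by any label, and no test was made on them.

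Chemokine genes were also lower in WT anti-PD1. Xcl1 was at 1362 and 139 CPM (-3.28), and the share of NK cells with an Xcl1 UMI at 1000 UMIs was 34.8% and 9.09%, with 0.555% or less in macrophages. Ccl1 had 84 UMIs in WT IgG and 1 in WT anti-PD1 (91.8 and 0.553 CPM, -5.90, interval -6.95 to -4.85). Ifng was at 119 and 57.5 CPM (-1.04) and Ccl4 at 458 and 228 CPM (-1.0). Of 9 measured members of the cytokine list 5 were past 2-fold lower (median -1.01), and without mixed cells Ccl1, Xcl1 and Spp1 were lower (median -0.56), Ifng and Ccl4 no longer passing. Beside this, 7.65% of all genes, and 8.15% without mixed cells, were past 2-fold lower. Among genes spanning under 10 kb, to which Xcl1 belongs, 24% were. Ccl5 did not move with them, at 919 and 860.4 CPM (-0.10), and no order is read from its share of cells, which went the other way (25.3% and 42.8%). Spp1, encoding osteopontin, was at 3231 and 498 CPM (-2.70). It also stood at 684 CPM in macrophages, 2253 in tumor cells and 2074 in stromal cells over the 4 libraries, and how much of the NK value is RNA of those cells was not tested.

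Type I interferon-stimulated genes were lower as a group. Of 22 measured members 14 were past 2-fold lower and none higher, with a median of -1.36. Without mixed cells 8 of 17 were lower (median -0.97). The shares over all genes were 7.65% with all cells and 8.15% without mixed cells, and 24% of genes spanning under 10 kb were past 2-fold lower. Isg15, a ubiquitin-like interferon product, was at 197 and 22.1 CPM (-3.10), Oasl1 at 74.3 and 9.39 CPM (-2.86, but under 50 CPM in both libraries without mixed cells), Bst2, encoding tetherin, at 345 and 88.4 CPM (-1.95), and Irf7, encoding a transcription factor of the response, at 96.2 and 30.4 CPM (-1.63). The group was not particular to NK cells: in T cells 23 of 30 members were lower (median -1.59) and in macrophages 29 of 34 (median -1.91). The share of cells with an Isg15 UMI was below the macrophage share in every library (16.5% against 61.0% in WT IgG, 1.76% against 14.3% in WT anti-PD1). Macrophages carry these genes themselves, with the list at 9571 summed CPM over the 4 libraries. How much of the NK share is RNA of other cells was not tested. The interferon-inducible chemokine gene Cxcl10 was at 226 and 17.7 CPM (-3.60), with 81.6% to 100% of its UMIs in the top 5% of NK cells of each library. Of 16 glycolysis genes 4 were past 2-fold lower (median -0.45), beside 7.65% of all genes. Among them was Gapdh (850.4 and 342 CPM, -1.31), which was also lower in T cells (-1.20) and macrophages (-1.08).

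On the higher side stood some transcription factor and receptor genes. Of 26 measured transcription factor genes 6 were past 2-fold higher, against 15.1% of all genes, and none lower (median 0.70 against 0.35 over all genes; without mixed cells 10 of 25 were higher, median 0.83): Eomes (151 and 307 CPM, 1.02), Tcf7, encoding TCF-1 of less differentiated lymphocytes (53.6 and 191 CPM, 1.81), Tox (152 and 341 CPM, 1.16), Rora (15.3 and 240.4 CPM, 3.89), Gata3 and Prdm1. For Rora the ratio was 3.49 without mixed cells, with UMIs in 13 cells of WT IgG and 114 of WT anti-PD1. In T cells the contrast was 0.73 for Eomes, 0.05 for Tcf7 and 0.80 for Rora. Conventional NK genes had 4 of 10 past 2-fold higher (median 0.86; without mixed cells 7 of 11, median 1.25 for the members measured with all cells), among them Itga2 (98.4 and 239.8 CPM, 1.28) and Itgam, encoding CD11b of mature NK cells (37.2 and 79.6 CPM, 1.08).

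At 1000 UMIs the share of NK cells with an Eomes UMI was 11.4% in WT IgG and 31.4% in WT anti-PD1, 2.75 times higher (1.74 to 4.37), and 15.3% and 15.7% in the 2 A159V libraries. Thinned to 1500 UMIs the WT ratio was 1.5, and without thinning 1.23. The share with an Itga2 UMI was 10.8%, 23.8%, 5.78% and 12.5%, against 0.555% or less in macrophages for both genes. NK cells with a UMI of Eomes or Itga2 but none of the ILC1 genes Itga1, Cxcr6 or Il7r were 17.1%, 42.5%, 17% and 24.2%. Those with the ILC1 genes alone were 10.8%, 11.1%, 15.6% and 12.1%. Macrophages, which carry Il7r themselves (266 CPM against 20.03 in NK cells), had them in 14.9% to 25.6%, and tumor cells of the 3 libraries with enough of them in 0.473% to 1.26%. In all libraries but WT anti-PD1 (41.9%), most cells had neither at this depth (70.3% for WT IgG, 63.6% and 61.7% for the A159V libraries). The cells could therefore not be divided into conventional NK cells and ILC1 at 1000 UMIs. Without thinning, 21.4%, 10.3%, 23% and 20.4% had neither, but 35, 80, 78 and 62 cells had both. The shares moved with depth. At 1500 UMIs, Eomes or Itga2 alone was found in 29.7% of WT IgG and 21.9% of A159V IgG cells. The ILC1 genes alone were found in 10.3% and 18.35%. The order of these 2 libraries was the same without thinning.

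Of 14 measured cytokine receptor and signaling genes 4 were past 2-fold higher and none lower (median 0.53), beside 15.1% of all genes higher (median 0.35). Without mixed cells 6 of 15 were higher (median 0.81), beside 16.4% of all genes (median 0.41). Stat4, which carries the interleukin 12 signal, was at 336 and 871 CPM (1.37), Il18r1, an interleukin 18 receptor chain, at 231 and 480.2 CPM (1.05), and Jak1, a kinase of many cytokine receptors, at 498 and 1034 CPM (1.05). Cd226 was at 60.1 and 175 CPM (1.53) and Cd7 at 16.4 and 88.4 CPM (2.36). Against this, the signaling adaptor genes Fcer1g (2077 and 813 CPM) and Tyrobp (1276 and 612 CPM, -0.90 and within 2-fold without mixed cells) were past 2-fold lower, as Fcer1g was in T cells (-1.71) and macrophages (-1.40). Tnfrsf9, encoding the costimulatory receptor 4-1BB, was at 742 and 219.9 CPM (-1.75), and its share of NK cells at 1000 UMIs was 41.8% and 16.4%, with 1.78% to 3.12% in macrophages. Among the named higher genes, several are known from fibroblasts, and their ratios shrank when mixed cells were left out: Pi16 went from 6.88 to 2.68, C3 from 4.79 to 0.35, Htra3 from 5.40 to 1.86 and C4b from 5.21 to 0.90. The ratios of Cmah (3.28, and 3.10 without mixed cells) and Angpt1 (2.72 and 2.97) changed little.

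**Figure D4:**
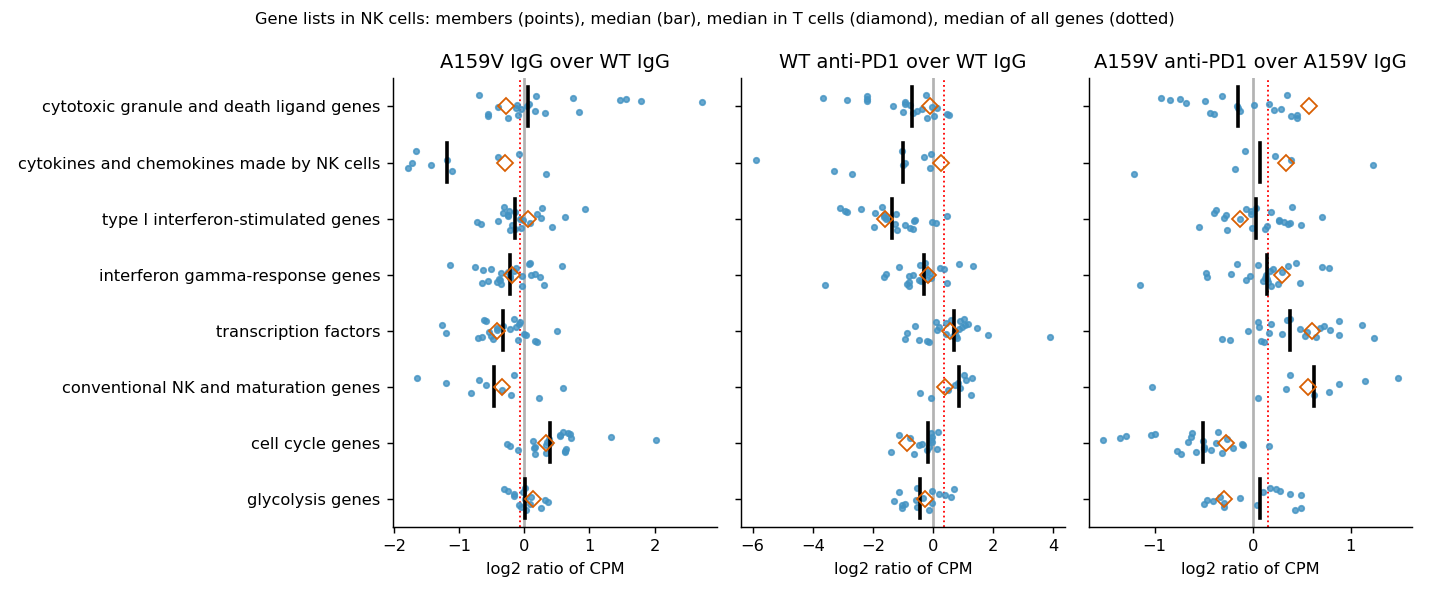
Log2 ratios (x axis) of the members of 8 gene lists (y axis) in NK cells for 3 comparisons. Points are genes, bars the list medians in NK cells, diamonds the medians in T cells and dotted lines the median of all genes. The cytokine list has a median of -1.19 in A159V IgG over WT IgG, and the type I interferon list a median of -1.36 in WT anti-PD1 over WT IgG.

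These ratios went along with gene length in WT anti-PD1. In NK cells the median log2 ratio to WT IgG was -0.49 for genes spanning under 10 kb, 0.09 for 10 to 30 kb, 0.48 for 30 to 100 kb and 0.67 for 100 kb and over. In T cells the same classes had -0.60, 0.00, 0.42 and 0.57, but in macrophages -0.30, 0.01, 0.00 and -0.03. In A159V anti-PD1 over A159V IgG the NK medians were -0.24, -0.04, 0.28 and 0.43, and in A159V IgG over WT IgG they were 0.11, 0.04, -0.14 and -0.25. Of the genes named above, Xcl1 and Isg15 span under 10 kb, and Rora, on chromosome 9 at 68653786 to 69388246, spans 734.5 kb. The part of length, of ribosomal protein content and of stromal RNA in the values above was not tested.

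**Figure D5:**
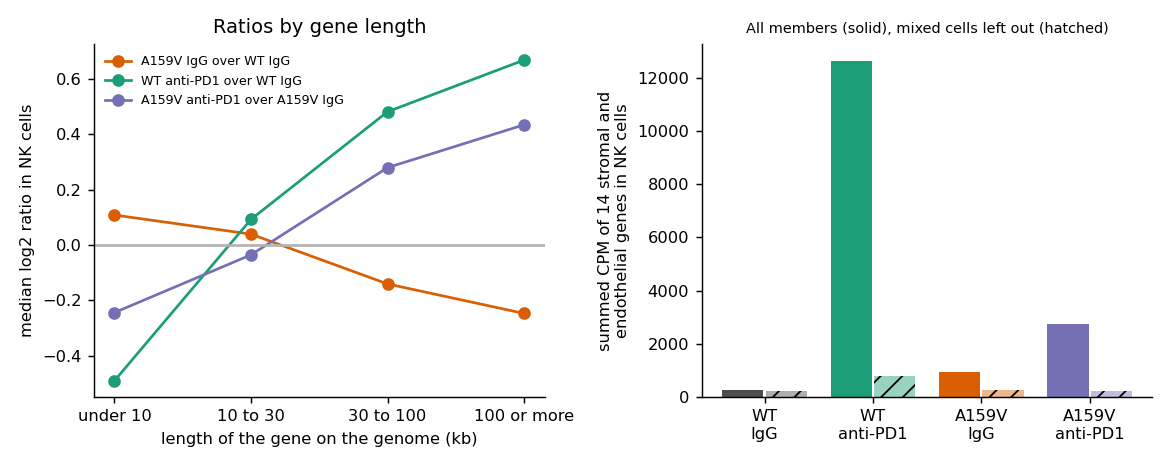
Left, median log2 ratio (y axis) of NK genes in 4 classes of gene span (x axis, kb) for 3 comparisons. Right, summed CPM (y axis, linear scale) of 14 stromal and endothelial genes in NK cells of the 4 libraries, solid with all cells and hatched without mixed cells. The medians for WT anti-PD1 over WT IgG run from -0.49 to 0.67, and the stromal sum of WT anti-PD1 is 12649 CPM with mixed cells and 769 without.

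In A159V tumors fewer genes passed 2-fold with anti-PD1. Of 3788 genes at the minimum, 66 (1.74%) were at least 2-fold higher with anti-PD1 than with IgG and 27 (0.713%) at least 2-fold lower, with a median of 0.16, and without mixed cells 51 and 29. Of the lists, the cell cycle list had the most members past 2-fold lower.

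None of 19 measured granule genes passed 2-fold in either direction (median -0.15). Gzmb was at 3738 CPM with IgG and 3010 with anti-PD1 (-0.31), Gzmc at 13954 and 7279 CPM (-0.94), Gzma at 2213 and 2816 CPM (0.35) and Prf1 at 866 and 974 CPM (0.17). Gzmc was just within 2-fold, and its share of cells at 1000 UMIs was 0.754 times (0.664 to 0.857) that in A159V IgG. In T cells of the same libraries Prf1 (1.58) and Gzma (1.57) were higher with anti-PD1. Ccl5 was the one cytokine gene of 6 measured that was past 2-fold higher in NK cells, at 266 and 624 CPM (1.23), while T cells had -0.23; Spp1 was lower (4059 and 1759 CPM, -1.21), Ifng was at 36.9 and 39.6 CPM (0.10), and in T cells Ifng was higher (1.48). No type I interferon-stimulated gene of 23 passed 2-fold (median 0.04).

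Of 23 measured cell cycle genes 4 were past 2-fold lower and 1 of 23 had a ratio above 0 (median -0.50, and -0.61 without mixed cells). In T cells 1 of 23 was lower (median -0.27). Over all NK genes 0.713% were past 2-fold lower (median 0.16), and 2.54% of those spanning under 10 kb (median -0.24). The part of gene length in the values of this paragraph was not tested. Ube2c was at 149 and 51.4 CPM (-1.52), and the survivin gene Birc5 at 89.8 and 43.3 CPM (-1.03). Among the genes named for the size of their ratio were 3 histone genes: Hist1h1b was at 242 and 56.5 CPM (-2.08), Hist1h2ap at 101 and 13.2 CPM (-2.85) and Hist1h2ae at 81.2 and 7.34 CPM (-3.30). All 3 were also lower with anti-PD1 in WT tumors. There Hist1h1b was at 92.9 (IgG) and 69.1 CPM (anti-PD1), Hist1h2ap at 209 and 47.5 CPM, and Hist1h2ae at 94 and 21 CPM. The thinned share of NK cells in cycle was 10.5% (7.28 to 14.6) with IgG and 7.26% (4.36 to 11.2) with anti-PD1, whose intervals overlap. Gadd45g, a stress and cytokine response gene, was at 332 and 104 CPM (-1.66).

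Conventional NK genes had 2 of 9 past 2-fold higher, among them Itga2 (30.7 and 87.3 CPM, 1.48), and 1 lower, the terminal maturation receptor gene Klrg1 (69.9 and 33.8 CPM, -1.03). Il12rb2 was at 81.2 and 183 CPM (1.17), Tox at 62.5 and 136 CPM (1.11), and Nt5e, encoding the adenosine-producing enzyme CD73, at 19.9 and 52.8 CPM (1.37). The sulfotransferase gene Ust (35.2 and 121 CPM, 1.75) and the transcription factor gene Klf12 (42.0 and 107 CPM, 1.33) were named by their ratios. Ust, Klf12, Itga2 and Tox were also higher with anti-PD1 in WT tumors (1.85, 1.78, 1.28 and 1.16), but both treated libraries shared the shift towards long genes described above.

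The last comparison sets the 2 genotypes side by side under anti-PD1. It shares the WT anti-PD1 library with the comparison to WT IgG and the A159V anti-PD1 library with that to A159V IgG, so its values are not independent of theirs. Of 4357 genes, 231 (5.3%) were at least 2-fold higher in the A159V library and 434 (9.96%) at least 2-fold lower (median -0.24). Of 20 measured granule genes 9 were past 2-fold higher (median 0.63; without mixed cells 8, median 0.44), among them Gzmc (653 and 7279 CPM, 3.48), Gzmf (289.6 and 3311 CPM, 3.51), Gzmb (719.5 and 3010 CPM, 2.06) and Prf1 (429 and 974 CPM, 1.18, but 0.96 and thus within 2-fold without mixed cells). Gzma, at 3049 and 2816 CPM (-0.11), did not differ by 2-fold. Of 23 type I interferon-stimulated genes 14 were past 2-fold higher (median 1.41; without mixed cells 10 of 19, median 1.24), with 22 of 28 in T cells (median 1.44). Of 26 transcription factor genes 5 were past 2-fold lower and 1 higher (median -0.62; without mixed cells 7 of 25 lower and 0 higher), Tcf7 (191 and 69.7 CPM, -1.44) and Rora (240.4 and 52.1 CPM, -2.19) among the lower. Tnfsf4 had UMIs in 2 of 348 cells in WT anti-PD1 and in 45 of 250 in A159V anti-PD1 (5.07). Rac1, the edited gene of the tumor line, was at 238, 203, 274 and 219 CPM in the NK cells of the 4 libraries, none of which carries the edit by design.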

How the data were processed

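Single cells of 4 tumor libraries, 1 per group, were profiled with a 10x 3′ kit. The authors deposited raw UMI counts per gene and barcode for 32285 genes. The matrix headers name software version 7.2.0, the submitters' processing notes Cell Ranger 5.0.1 and mm10, and the methods the mm10 reference of 10x Genomics with introns included. The background and doublet removal that the authors ran later is not in these counts.

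Barcodes with more than 500 genes were kept (510, 590, 553 and 432 left out in the WT IgG, WT anti-PD1 and the 2 A159V libraries), and no doublets were removed except in an alternative that scored each barcode against simulated pairs. NK cells and comparison classes were gated on UMIs. Members and gene lists were chosen with earlier results of these data known. The summed NK counts of a library became CPM with Poisson intervals (exact), and log2 ratios with a pseudocount of 1 CPM and delta-method intervals. Shares have Clopper-Pearson intervals and their folds Katz intervals. These intervals ignore spread between cells and animals. Named genes were, per comparison, the 12 highest and 12 lowest ratios among genes of at least 50 CPM in 1 library, without genes whose CPM elsewhere exceeded the NK value over 5 times, and without gate, mitochondrial, ribosomal, hemoglobin, immunoglobulin, T cell receptor and identifier-only genes; list members past 2-fold and the 4 highest of each list; the 20 genes with the highest ratio to other classes; and a set for thinned shares. Genes named for within-cell pairs, Trac, Trbc1, Trbc2, Cd8a and Pdcd1 were named as checks. Symbols Klrh1, Hobit, Mx1, Mx2 and Trgc1 of the lists were not analysed here, and some list members are not reported here. The alternatives covered the gate, thinning, filter, pseudocount, scaling, doublets and mixed cells. Steps were tested on simulated data. Python 3.11.15, numpy 2.4.6, scipy 1.17.1, pandas 2.3.3, scikit-learn 1.9.0 and matplotlib 3.10.9 were used.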

Additional observations from a re-analysis of the deposited data

Results flagged for a closer look

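The NK share moved in opposite directions with anti-PD1 in the 2 genotypes. Among all barcodes it was 2.33 times that of IgG in WT tumors and 0.763 times in A159V tumors, among barcodes with a Ptprc UMI 2.45 and 0.603 times, and among NK plus T cells 1.64 and 0.641 times. With every barcode thinned to 1500 UMIs the folds were 2.83 and 0.888 (0.694 to 1.14), the latter with an interval that holds 1. With 1 library in each group this difference was not tested.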

How the results depend on the processing

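No paired analysis was possible because each group has 1 library and no test was made. The cause of each change below was not tested unless the setting itself makes it. With every barcode thinned to 1500 UMIs, the fold of the NK share was 1.34 between the IgG libraries (A159V over WT), 2.83 for anti-PD1 over IgG in WT, 0.888 (0.694 to 1.14, an interval that holds 1) for the same in A159V and 0.420 between the anti-PD1 libraries (A159V over WT). Over Ptprc barcodes the folds were 2.07 for the first and 0.603 for A159V anti-PD1 over A159V IgG, and over NK plus T cells they were 2.17, 1.64, 0.641 and 0.847 in the order of the report.

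Counts of genes past 2-fold depended on the minimum level. In A159V IgG over WT IgG the higher count was 135 at 20 CPM, 1839 with no filter, 121 without the C1qa and Hmga2 conditions, 24 without genes of other classes and 62 with median-of-ratios scaling, and the lower count 142, 1504 (20 CPM, no filter), 26 with a pseudocount of 10 and 30 with median-of-ratios scaling. In WT anti-PD1 over WT IgG they were 1302 and 4234 higher (20 CPM, no filter), 392 higher with median-of-ratios scaling and 1582 lower with no filter. In A159V anti-PD1 over A159V IgG the higher count was 201, 1316, 40 (pseudocount of 10), 39 (genes of other classes out) and 43 (median-of-ratios), and the lower count 73, 898, 16 (no C1qa and Hmga2 conditions), 49 (0 UMIs of Trac, Cd4 and Cd8a), 56 (median-of-ratios) and 42 (mean of per-cell CPM). In A159V anti-PD1 over WT anti-PD1 it was 381 and 1171 higher (20 CPM, no filter), 425 higher without the C1qa and Hmga2 conditions, 867 and 3094 lower, and 274 lower without genes of other classes.

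List medians moved to -0.87 (cytokines, A159V IgG over WT IgG) and -0.50 (granule genes, WT anti-PD1 over WT IgG) with the mean of per-cell CPM, and to -0.30 (granule genes, A159V anti-PD1 over A159V IgG) with median-of-ratios scaling. Leaving out mixed cells, an alternative chosen after seeing the data, moved cytokines to -0.56 and conventional NK genes to 1.25 in WT anti-PD1 over WT IgG, and granule genes to 0.44 and cytokines to -0.31 in A159V anti-PD1 over WT anti-PD1. The fold of the Eomes share was 0.781 (A159V IgG) and 1.5 (WT anti-PD1) against WT IgG at 1500 UMIs, and without thinning 1.23 for the latter and 0.758 for A159V anti-PD1 over WT anti-PD1. Of 281 named gene ratios, 5 changed sign without mixed cells and 10 without predicted doublets. The first were Col1a1 (-0.20) and Col1a2 (-0.39) in A159V IgG over WT IgG, Ebf1 (-0.45) for anti-PD1 over IgG in WT, Dcn (-0.44) for the same in A159V and Arg1 (1.28) in A159V anti-PD1 over WT anti-PD1. The others were Cd74 (-0.13) in A159V IgG over WT IgG, Ccn1 (-0.48) in A159V anti-PD1 over A159V IgG, and, in A159V anti-PD1 over WT anti-PD1, C3 (0.53), Tgfbr3 (0.38), Col1a1 (0.63), Col1a2 (0.71), Col3a1 (0.25), Sparc (0.71), Lum (0.36) and Bgn (1.02). No ratio changed sign under the other 9 settings run on them.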

Other observations

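Amino acid transport and mTORC1 target genes had 1 of 14 measured members past 2-fold in A159V IgG over WT IgG and a list median of 0.67, beside 1.09% higher and a median of -0.07 over all genes. Genes of chemokine receptors and homing were above 0 in 12 of 12 measured members in WT anti-PD1 over WT IgG, with 3 past 2-fold higher and a median of 0.75, beside 15.1% of all genes past 2-fold higher and a median of 0.35 over all genes. Opposite signs with anti-PD1 in A159V were looked for among the list and named genes past 2-fold in WT. A gene also needed at least 50 CPM in 1 library of each genotype and an A159V interval that left out 0. By this rule there were 3, namely Ifi204 (-1.57 and 0.27), Ifih1 (-1.26 and 0.49) and Ccl4 (-1.0 and 0.40). Genes that missed either condition, Ifng among them, were not counted. Without mixed cells the 3 were at -1.77 and 0.25, -0.74 and 0.82, and -0.56 and 0.53. The difference was not tested.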
